A study of Mus musculus with 12 samples.

Results

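The clock output genes described here are 8 transcription factor genes that were chosen by name: the REV-ERB genes Nr1d1 and Nr1d2, the PAR bZIP genes Dbp, Tef and Hlf, their competitor Nfil3, and the DEC genes Bhlhe40 and Bhlhe41. All 8 were found among the 49315 genes of the count tables, and all 8 passed the filter on low counts that left 17416 genes for testing. RNA-seq was performed on primary MAFs, fibroblasts taken from the ears of adult female mice that were either wild-type C57BL/6J (WT) or Bmal1-/- (KO). Senescence was induced with 20 Gy of X-rays followed by further days of culture, and controls were given a sham exposure. Every culture, controls included, was treated with 100 nM dexamethasone, a glucocorticoid that synchronizes the circadian clock, and was collected 12 hours later. Each of the 4 groups held 3 libraries, and the labels do not say whether these came from separate mice or cultures, so the p-values measure the spread between these libraries only. With 1 time of collection, the data hold the level of each gene at that time and not its rhythm, amplitude or phase.

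In the circadian clock, a dimer of BMAL1 and CLOCK binds E-box sequences and switches on genes that include its own repressors of the Period and Cryptochrome families. The genes studied here lie just downstream. REV-ERBα (Nr1d1) and REV-ERBβ (Nr1d2) are nuclear receptors that repress Bmal1 and other genes with REV-ERB elements, which closes an interlocking loop. DBP, TEF and HLF activate genes with D-box sequences, NFIL3 (E4BP4) represses through the same sequences, and DEC1 (Bhlhe40) and DEC2 (Bhlhe41) bind E-boxes and repress there.

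The sequence upstream of the start site was examined for the letters these factors recognise, because the genotypes differed in opposite directions among genes that are commonly described as sharing E-boxes. RefSeq windows on GRCm38.p6, from 250 bases before to 50 bases after a start site (300 bases), were matched for 7 of the 8 genes, with 8 windows in all. The E-box CACGTG was present in both windows of Tef and in that of Bhlhe41, the E'-box CACGTT in that of Nr1d1 and the REV-ERB element TAGGTCA in that of Nfil3. The D-box (TTATGTAA or TTACGTAA) and the AP-1 site TGAGTCA were in none of the 8. Both strands were searched, and TGGGTCA was also counted as a REV-ERB element. Of 32817 windows of that length, 7.15% held the E-box, 4.69% the E'-box, 6.46% a REV-ERB element, 1.05% a D-box and 5.2% the AP-1 site. The E'-box was added to the search after the windows had been read. A match describes the letters only, and the windows do not reach distal or intronic sites.

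The stretches below are those of the REV-ERB pair, the genes with the largest genotype difference, of the 2 genes with an E-box, and the site of 29 bases around the REV-ERB element of Nfil3. Each runs 5′ to 3′ on the strand of its gene. Those of Nr1d1, Nr1d2 and Bhlhe41 stop before the first annotated exon base of the gene. That of Tef lies inside the gene, just before an alternative first exon and outside annotated exons, and the Nfil3 site lies within the first annotated exon. The capitals mark the matched letters (AACGTG and TGACCTA are the reverse complements of the letters named).
Nr1d1 (chr11:98775378-98775627, minus strand): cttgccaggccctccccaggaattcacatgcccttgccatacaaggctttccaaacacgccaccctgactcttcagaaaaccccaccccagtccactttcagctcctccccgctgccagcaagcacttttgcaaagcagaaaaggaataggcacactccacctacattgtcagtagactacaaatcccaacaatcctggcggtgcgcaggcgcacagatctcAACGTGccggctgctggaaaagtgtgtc
Nr1d2 (chr14:18239128-18239356, minus strand): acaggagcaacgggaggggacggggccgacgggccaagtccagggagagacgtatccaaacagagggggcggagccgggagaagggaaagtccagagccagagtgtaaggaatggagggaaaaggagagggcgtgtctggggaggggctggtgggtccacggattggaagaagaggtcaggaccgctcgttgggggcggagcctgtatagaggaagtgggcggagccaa
Tef (chr15:81811164-81811413, plus strand): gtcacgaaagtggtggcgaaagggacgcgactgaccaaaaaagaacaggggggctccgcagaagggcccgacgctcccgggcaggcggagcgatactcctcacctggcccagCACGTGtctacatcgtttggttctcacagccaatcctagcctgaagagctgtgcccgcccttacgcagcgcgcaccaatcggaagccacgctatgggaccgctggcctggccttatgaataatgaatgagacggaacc
Bhlhe41 (chr6:145865559-145865670, minus strand): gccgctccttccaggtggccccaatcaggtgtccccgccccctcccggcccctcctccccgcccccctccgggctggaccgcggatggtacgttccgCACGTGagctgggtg
Nfil3 (chr13:52981034-52981062, minus strand): gcgctcggaacTGACCTActaacacacat
Counted from the start site, the matched letters began at −28 in Nr1d1, at −138 in the Tef window shown, at −153 in Bhlhe41 and at −12 in Nfil3.

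Total counts were 23923030 to 31736083 per library. Arntl, the gene of BMAL1, had a level of 29.8 to 33.2 CPM (read counts scaled to the same library total) in WT control, 35.2 to 37.4 in WT senescent, 11.8 to 15.2 in KO control and 25.3 to 27.5 in KO senescent libraries, so that every KO library lay below every WT library although reads of the gene were still counted. Passing the filter on low counts does not by itself identify a cell type, and all 4 endothelium markers passed it. All 9 markers of fibroblasts, the labelled cell type, also passed the filter. Their summed level was lower in senescent libraries (9844 to 10252 CPM in WT and 11733 to 12151 in KO) than in control libraries (20020 to 20830 in WT and 24978 to 26343 in KO), with 5 markers higher and 4 lower in WT senescent cells and 3 higher and 5 lower in KO senescent cells. Chondrocyte markers (8 genes, 7 of them tested, none at 0 in all libraries) moved with the groups, with a summed level of 7196 to 8885 CPM in WT control, 2039 to 2372 in WT senescent, 4792 to 6497 in KO control and 664 to 775.6 in KO senescent libraries. Their part in the results was not tested, and in bulk RNA fewer cells of a type and less RNA per cell cannot be told apart. Markers of keratinocytes, macrophages, melanocytes, endothelium, skeletal muscle and adipocytes summed to 1.94 to 58.9 CPM per list and library. Those of skeletal muscle were highest in WT control libraries (44.8 to 58.9 CPM) and those of keratinocytes in WT senescent libraries (18 to 19.1 CPM). Adipocyte markers were higher in senescent than control libraries, at 16.4 to 23.1 against 8.53 to 9.8 CPM for WT and 15.8 to 19.7 against 6.87 to 8.65 CPM for KO. The part of these lists in the results was not tested either. The 8 listed cell cycle genes all fell with senescence, by a median of −3.34 on the log2 scale for WT and −4.07 for KO. The 2 tables were deposited by genotype, so handling of a table and genotype cannot be told apart where KO is compared with WT. WT control replicate 3 had the lowest level of its group for Nr1d1, Nr1d2, Dbp, Tef, Hlf and Bhlhe41, and results that rest on it are given with and without it.

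To compare levels between genes, CPM was divided by the exon length of each gene in kb. That length counts every base in any annotated exon of the gene, and the order depends on it. In CPM alone, the mean of Bhlhe40 was above that of Nfil3 in every group (64.6 against 59.4 in WT control cells). The ranks that follow are per kb. Nfil3 ranked first in every group, at 29.3 ± 1.31 CPM per kb in WT control cells (SD, n = 3), and Bhlhe40 ranked second at 13.7 ± 0.748. In WT control cells Nr1d1 (5.88 ± 0.906), Nr1d2 (4.41 ± 0.0972) and Tef (3.09 ± 0.348) followed without overlap between neighbours, and Dbp (0.963 ± 0.34), Bhlhe41 (0.846 ± 0.266) and Hlf (0.559 ± 0.288) overlapped with their neighbours. The order below Bhlhe40 was different in KO control cells, where Tef came next at 5.56 ± 0.306 CPM per kb, and Nr1d1 (1.34 ± 0.145) and Nr1d2 (1.12 ± 0.0615) lay below Tef and at or below Dbp (1.61 ± 0.402), with Dbp and Nr1d1 overlapping. In WT senescent cells Nr1d1 reached 10.8 ± 0.185 CPM per kb and overlapped with Bhlhe40 at 11.5 ± 0.753, and Nr1d2 (6.42 ± 0.627) overlapped with Tef (5.66 ± 0.262). In KO senescent cells Nr1d2 (1.1 ± 0.131) overlapped with Bhlhe41 (0.95 ± 0.118), and Hlf was last in all 4 groups.

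**Figure D1:**
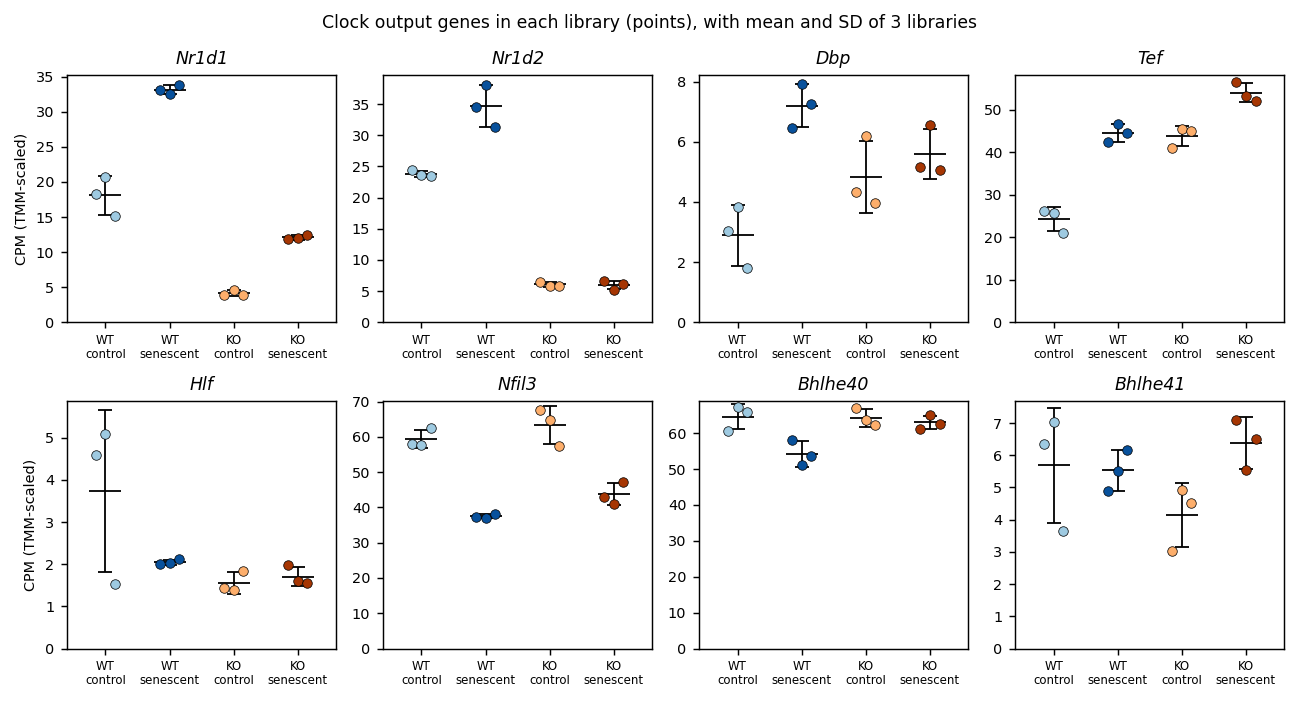
Level of each of the 8 genes (vertical axis, CPM on TMM-scaled totals, starting at 0) in the 12 libraries, by group; points are libraries, and the horizontal mark and bar give the mean and SD of 3. Nr1d1 and Nr1d2 are lower in all KO than in all WT libraries, and Hlf in WT control cells runs from 1.54 to 5.09 CPM.

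Loss of BMAL1 was compared first for the REV-ERB genes, whose transcription the paper describes as driven by BMAL1 and CLOCK. Binding of BMAL1 to these genes was not measured in these libraries. Nr1d1 (ENSMUSG00000020889, GRCm38 chromosome 11, 98767932 to 98775333, minus strand) had 18.3, 20.7 and 15.2 CPM in the WT control libraries and 3.88, 4.65 and 3.86 CPM in the KO control libraries. Nr1d2 (ENSMUSG00000021775, chromosome 14, 18204054 to 18239127, minus strand) had 24.4, 23.7 and 23.4 CPM in the WT control libraries and 6.44, 5.89 and 5.84 CPM in KO control libraries. Neither gene overlapped between genotypes in control cells, which was also so for 25.9% of all tested genes. The KO level was 4.36-fold lower for Nr1d1 (log2 fold change −2.12, SE 0.11, adjusted p 4.16e-11) and 3.93-fold lower for Nr1d2 (−1.98, SE 0.10, adjusted p 2.07e-11). Ordered by p-value among the 17416 genes tested, Nr1d2 had rank 9 and Nr1d1 rank 13 in control cells. In senescent cells Nr1d1 was at 33.1, 32.6 and 33.8 CPM for WT and 11.8, 12 and 12.5 CPM in KO libraries, 2.74-fold lower in KO (−1.45, SE 0.10, adjusted p 1.71e-09). Nr1d2 was at 34.6, 38.1 and 31.4 CPM in WT senescent and 6.56, 5.18 and 6.15 CPM in KO senescent libraries, 5.83-fold lower in KO (−2.54, SE 0.10, adjusted p 4.29e-13) and the gene of rank 2 by p-value. Both genes passed under every alternative tried in these comparisons. Part of the Nr1d1 exons (8.55% of bases) overlaps Thra on the opposite strand, and since the use of strand in counting is not given in the sources used here, reads of that part are uncertain.

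Senescence raised Nr1d1 in both genotypes but Nr1d2 in WT cells only as far as the tests could show, and the difference between genotypes was tested for each. Nr1d1 rose 1.83-fold in WT cells (log2 fold change 0.87, SE 0.10, adjusted p 1.03e-07) and 2.92-fold in KO cells (1.54, SE 0.12, adjusted p 3.13e-10). On the log2 scale the KO rise was the larger, with an interaction (KO less WT log2 fold change) of 0.67 (SE 0.15, adjusted p 0.00344). In CPM it was the smaller, as the mean of Nr1d1 went from 18.1 to 33.2 in WT cells and from 4.13 to 12.1 in KO cells. Nr1d2 rose 1.46-fold in WT cells (0.54, SE 0.09, adjusted p 1.98e-05) and stood at −0.02 in KO cells (SE 0.11, adjusted p 0.87), where the groups overlapped. The interaction of Nr1d2 had the opposite sign, −0.57 (SE 0.14, adjusted p 0.00703). The rises of Nr1d1 in each genotype, that of Nr1d2 in WT cells and both interactions passed under every alternative tried.

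The ratio of the pair within a library, in which library scaling cancels, shows this divergence as a description. The log2 ratio of Nr1d1 to Nr1d2 per kb was 0.40, 0.62 and 0.19 in WT control, 0.75, 0.59 and 0.92 in WT senescent and 0.08, 0.47 and 0.22 in KO control libraries. In KO senescent libraries it was 1.67, 2.02 and 1.84, above every library of the other groups. The mean ratio was 1.32 in WT control, 1.68 in WT senescent, 1.2 in KO control and 3.59 in KO senescent cells.

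**Figure D2:**
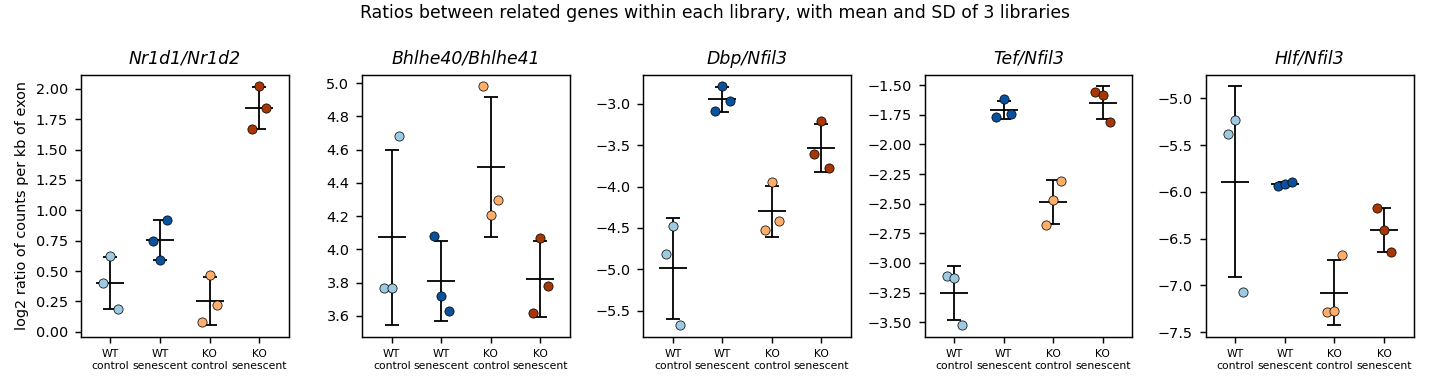
Log2 ratio of counts per kb of exon between related genes (vertical axis, own scale in each panel, not starting at 0) in each of the 12 libraries, with mean and SD of 3. The Nr1d1/Nr1d2 ratio of KO senescent libraries, 1.67 to 2.02, lies above the others, and Dbp/Nfil3 and Tef/Nfil3 are higher in senescent than in control libraries of the same genotype.

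The PAR bZIP genes, which carry clock time to D-box genes, differed in direction between genotypes. In control cells Tef and Dbp were higher and Hlf lower in KO, but of these only the difference of Tef passed under every alternative tried. Tef (ENSMUSG00000022389, chromosome 15, 81802421 to 81826863, plus strand) had 26.1, 25.6 and 21.1 CPM in the WT control libraries and 41, 45.4 and 44.9 CPM in KO control libraries, 1.8-fold higher without BMAL1 (log2 fold change 0.85, SE 0.08, adjusted p 1.02e-07). In senescent cells it was at 42.5, 46.6 and 44.4 CPM in WT and 56.5, 53.3 and 52.1 CPM in KO libraries, 1.21-fold higher in KO (0.28, SE 0.07, adjusted p 0.00707). The genotypes overlapped in neither state. Of all tested genes, 25.9% did not overlap between genotypes in control cells and 42% in senescent cells. Tef rose with senescence 1.83-fold in WT cells (0.87, SE 0.08, adjusted p 3.27e-09) and 1.23-fold in KO cells (0.30, SE 0.07, adjusted p 0.00121), and the KO rise was smaller, with an interaction of −0.57 (SE 0.10, adjusted p 0.000668). Tef passed in each of these comparisons under every alternative tried. The exons of Tef overlap the antisense gene Gm17597 over 2.45% of their bases.

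Dbp (ENSMUSG00000059824, chromosome 7, 45705088 to 45710203, plus strand) was low, at 3.02, 3.83 and 1.81 CPM in the WT control libraries, 6.46, 7.91 and 7.25 CPM in the WT senescent set, 4.32, 6.2 and 3.95 CPM in KO control and 5.17, 6.56 and 5.07 CPM in KO senescent libraries. WT control libraries were lowest, and KO control and KO senescent libraries overlapped. Dbp rose 2.48-fold with senescence in WT cells (log2 fold change 1.31, SE 0.22, adjusted p 4.08e-05, and 1.07 without WT control replicate 3). In KO cells the change was 0.21 (SE 0.21, adjusted p 0.423), and the interaction was −1.11 (SE 0.31, adjusted p 0.0142), −0.87 without WT control replicate 3 (adjusted p 0.0276). That interaction missed the threshold without KO control replicate 2 (−0.88, adjusted p 0.0554). KO control cells were 1.67-fold higher than WT control cells (0.74, SE 0.23, adjusted p 0.0353) but this was lost without WT control replicate 3 (0.51, adjusted p 0.127), without WT control replicate 1 (0.77, adjusted p 0.0939), without KO control replicate 2 (0.51, adjusted p 0.211) and without WT senescent replicate 3 (0.74, adjusted p 0.0507), with upper-quartile factors (0.73, adjusted p 0.0504) and in a fit of the control libraries alone (0.73, adjusted p 0.122). In senescent cells the KO value was −0.36 against WT (SE 0.21, adjusted p 0.222). Exons of Dbp overlap Sphk2 on the opposite strand over 18% of their bases.

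Hlf (ENSMUSG00000003949, chromosome 11, 90336536 to 90390895, minus strand) was the least expressed of the genes per kb of exon, with 34 to 125 reads per library. It was at 4.58, 5.09 and 1.54 CPM in the WT control libraries, 2.01, 2.02 and 2.12 CPM in the WT senescent set, 1.44, 1.38 and 1.85 CPM in KO control and 1.97, 1.6 and 1.55 CPM in KO senescent libraries. WT control replicates 1 and 2 were above every other library, and WT control replicate 3 lay within the range of the KO libraries. Hlf fell 1.83-fold with senescence in WT cells (log2 fold change −0.87, SE 0.31, adjusted p 0.0203) and was 2.42-fold lower in KO than in WT control cells (−1.28, SE 0.32, adjusted p 0.0105), although the groups overlapped in both comparisons. Without WT control replicate 3 these values were −1.24 (adjusted p 4.39e-05) and −1.64 (adjusted p 2.72e-05). Without WT control replicate 2 they were −0.59 (adjusted p 0.136) and −0.99 (adjusted p 0.0588), and without WT control replicate 1 they were −0.71 (adjusted p 0.0982) and −1.10 (adjusted p 0.064). The WT change was also lost without WT senescent replicate 1 or 2 (−0.86 and adjusted p 0.056 for each), and the KO control difference without KO control replicate 2 (−1.19, adjusted p 0.056). Fitted to the compared libraries alone, neither passed (adjusted p 0.0619 and 0.0739). In KO cells the senescence change was 0.14 (SE 0.33, adjusted p 0.75), and the interaction was 1.01 (SE 0.45, adjusted p 0.125), with 1.37 and adjusted p 0.0035 without WT control replicate 3. Among senescent cells the KO value of Hlf was −0.27 against WT (SE 0.32, adjusted p 0.596).

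Nfil3 (ENSMUSG00000056749, chromosome 13, 52967209 to 52981073, minus strand), the repressor that competes with the PAR bZIP factors, fell with senescence in both genotypes, opposite to the rise of Tef. It had 57.9, 57.8 and 62.4 CPM in the WT control libraries and 37.3, 37 and 38.2 CPM in the WT senescent libraries, a 1.58-fold fall (log2 fold change −0.66, SE 0.07, adjusted p 4.08e-08). In KO cells it fell from 67.7, 64.8 and 57.4 CPM to 42.9, 41 and 47.1 CPM, 1.45-fold (−0.53, SE 0.07, adjusted p 7.36e-07). Neither pair of groups overlapped, which was also so for 63.2% of all tested genes in WT and 61.6% in KO cells. The falls were not shown to differ (interaction 0.13, SE 0.10, adjusted p 0.382). KO and WT control cells overlapped (0.09, SE 0.07, adjusted p 0.416). In senescent cells Nfil3 was 1.16-fold higher in KO (0.22, SE 0.07, adjusted p 0.0231), a difference that was lost without WT senescent replicate 1, 2 or 3 or KO senescent replicate 3, at 0.16 to 0.23 and an adjusted p of up to 0.139.

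The balance of D-box activator to repressor mRNA was read as a ratio within each library. The log2 ratio of Tef to Nfil3 per kb was −3.11, −3.13 and −3.52 in WT control and −1.77, −1.62 and −1.74 in WT senescent libraries. In KO libraries it was −2.68, −2.47 and −2.31 in control and −1.56, −1.58 and −1.81 in senescent cells, and the 2 states did not overlap in either genotype. Nfil3 exceeded Tef per kb by 9.53-fold in WT control, 5.61-fold in KO control, 3.27-fold in WT senescent and 3.14-fold in KO senescent cells. For Dbp the excess of Nfil3 was 31.8-fold in WT control, 19.7-fold in KO control, 7.71-fold in WT senescent and 11.6-fold in KO senescent cells, and for Hlf it was 59.4-fold, 134.9-fold, 60.4-fold and 84.8-fold in the same order. The WT control means lean on replicate 3. By replicate the WT control log2 ratio to Nfil3 was −4.82, −4.48 and −5.67 for Dbp and −5.38, −5.23 and −7.07 for Hlf. WT senescent libraries, at −5.94, −5.92 and −5.89, lay within that spread for Hlf. These ratios are between mRNA levels and carry no test. The size of the excess depends on the exon lengths used. In CPM alone, the mean of Tef was above that of Nfil3 in WT senescent cells (44.5 against 37.5) and KO senescent cells (54 against 43.7). It was below that of Nfil3 in the control cells of each genotype.

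The DEC genes, repressors at E-boxes, passed in fewer comparisons than the REV-ERB pair. Bhlhe40 (ENSMUSG00000030103, chromosome 6, 108660629 to 108666925, plus strand) was at 60.6, 67.4 and 65.8 CPM in the WT control libraries, 58.1, 51.1 and 53.6 CPM in the WT senescent set, 67.1, 63.6 and 62.2 CPM in KO control and 61.3, 65 and 62.7 CPM in KO senescent libraries. WT senescent libraries were below all others. Bhlhe40 fell 1.19-fold with senescence in WT cells (log2 fold change −0.25, SE 0.06, adjusted p 0.00132), was at −0.03 in KO cells (SE 0.06, adjusted p 0.695), and the difference missed the threshold (0.22, SE 0.09, adjusted p 0.0708). With DESeq2 that difference passed (0.25, adjusted p 0.0351), and it also passed with DESeq2 size factors (0.25, adjusted p 0.0407) and without WT control replicate 1, WT senescent replicate 1 or KO control replicate 1. KO and WT control cells overlapped (−0.01, SE 0.06, adjusted p 0.964). In senescent cells Bhlhe40 was 1.16-fold higher in KO (0.21, SE 0.06, adjusted p 0.0121), which was lost without WT senescent replicate 2 or 3 or KO senescent replicate 2 (adjusted p up to 0.093).

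Bhlhe41 (ENSMUSG00000030256, chromosome 6, 145858243 to 145865558, minus strand) was at 6.35, 7.04 and 3.66 CPM in the WT control libraries, 4.9, 5.52 and 6.17 CPM in the WT senescent set, 3.04, 4.92 and 4.51 CPM in KO control and 7.1, 5.53 and 6.52 CPM in KO senescent libraries. It rose 1.53-fold with senescence in KO cells (log2 fold change 0.61, SE 0.21, adjusted p 0.019), and this was lost without KO control replicate 1 (0.43, adjusted p 0.091) or KO senescent replicate 1 (0.54, adjusted p 0.0705). The KO groups did not overlap, which was also so for 61.6% of all tested genes. In WT cells the value was −0.05 (SE 0.21, adjusted p 0.87). The interaction of 0.66 (SE 0.30, adjusted p 0.132) and the KO control difference of −0.45 (SE 0.22, adjusted p 0.189) did not pass, and without WT control replicate 3 they were 0.89 (adjusted p 0.0167) and −0.68 (adjusted p 0.0194). In senescent cells the KO value was 0.21 against WT (SE 0.21, adjusted p 0.515). Exons of Bhlhe41 overlap Gm43909 on the opposite strand over 19% of their bases. The log2 ratio of Bhlhe40 to Bhlhe41 per kb was 4.21 to 4.98 in KO control libraries, above the 3.63 to 4.08 of WT senescent and the 3.62 to 4.07 of KO senescent libraries, and WT control libraries (3.77 to 4.68) overlapped with every other group.

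**Figure D3:**
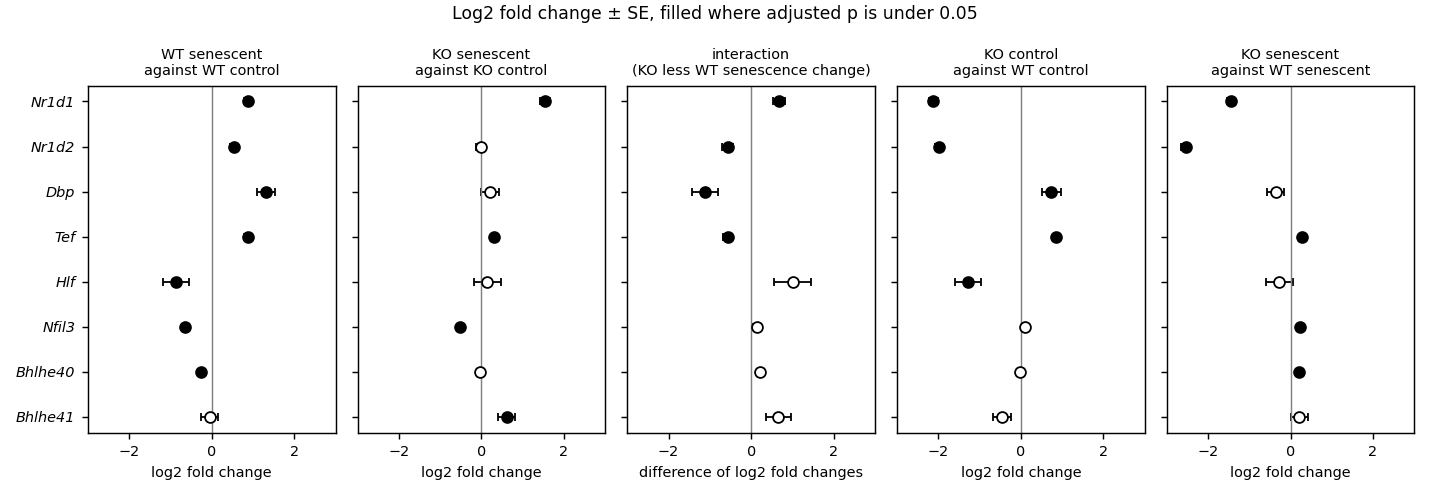
Log2 fold change (horizontal axis, bars are SE) of the 8 genes in the 5 comparisons, filled where the adjusted p is under 0.05. Nr1d1 and Nr1d2 lie at −2.12 and −1.98 in KO against WT control cells, and their interactions have opposite signs.

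Counts over the 8 genes were read against the share of all tested genes that passed an adjusted p under 0.05. Between WT senescent and control cells 7 of 8 passed, 4 higher and 3 lower, against 56.2% of all genes (29.2% higher and 27% lower). In KO cells 4 of 8 passed with senescence, 3 higher and 1 lower, against 57.1% (28.5% higher and 28.6% lower), which is close to the background. The interaction passed for 4 of 8, 1 higher and 3 lower, against 20.9% (9.24% higher and 11.7% lower). Between KO and WT control cells 5 of 8 passed, 2 higher and 3 lower, against 13% (8.07% higher and 4.96% lower), and without WT control replicate 1 or KO control replicate 2 this count was 3. In senescent cells 5 of 8 passed between genotypes, 3 higher and 2 lower, against 23.7% (11.9% higher and 11.8% lower), and 3 without WT senescent replicate 2 or 3. The median log2 fold change of the 8 genes was 0.25, 0.17, 0.17, −0.23 and −0.03 in these comparisons, and that of all genes was between −0.03 and 0.02. Senescent and control groups did not overlap for 6 of 8 in WT cells and 4 of 8 in KO cells. Of all tested genes this held for 63.2% and 61.6%, so it was common. The genotypes did not overlap for 4 of 8 in control cells, against 25.9% of all tested genes, and for 6 of 8 in senescent cells, against 42%.

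Other genes of the clock were counted from a list of 18. With senescence 8 passed as higher and 2 as lower in WT cells and 9 and 3 in KO cells, shares near those of all genes (56.2% and 57.1% in either direction). Between KO and WT, 6 were higher and 1 lower in control cells (13% of all genes in either direction), and 6 were higher and 2 lower in senescent cells (23.7% of all genes). Cry1, a repressor of the BMAL1 dimer with a REV-ERB element, was at a mean of 9.59 CPM in WT control and 45.8 CPM in KO control cells (log2 fold change 2.26, SE 0.09, adjusted p 2.36e-13) and at 9.75 and 56 CPM in senescent cells (2.52, SE 0.08, adjusted p 4.75e-14). Npas2, a CLOCK paralogue that is a REV-ERB target, was higher in KO cells by 1.79 in control cells (SE 0.14, adjusted p 1.91e-08) and by 1.59 in senescent cells (SE 0.14, adjusted p 7.45e-08). Per2, an E-box gene and repressor, was higher in KO cells too, from 1.54 to 12.8 CPM in control cells (3.04, SE 0.16, adjusted p 2.43e-11) and from 4.17 to 16.3 CPM in senescent cells (1.96, SE 0.13, adjusted p 2.03e-09). Clock, the partner of BMAL1, was at means of 110.0 to 114.4 CPM in the 4 groups and passed in no comparison.

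E-box genes outside the 8 also differed in direction. Per1 was not shown to differ between genotypes (0.23 in control cells, adjusted p 0.0728, and 0.05 in senescent cells, adjusted p 0.702). Per3 was lower in KO only among senescent cells (−1.04, SE 0.16, adjusted p 8.44e-05, against −0.06 and adjusted p 0.884 in control cells), and its interaction was −0.98 (SE 0.24, adjusted p 0.00544), the same sign as that of Nr1d2, Dbp and Tef. Ciart, a repressor that also carries E-boxes, was higher in KO in control cells (0.72, SE 0.17, adjusted p 0.00816) and in senescent cells (0.66, SE 0.18, adjusted p 0.00956). Among the 5 listed genes with REV-ERB elements outside the 8 members, 3 were higher and 1 lower in KO control cells, and 2 higher and 1 lower in KO senescent cells, the lower gene being Arntl itself. Of the 6 listed E-box or D-box genes outside the members, 4 were higher and 0 lower in KO control cells, and 4 higher and 1 lower in KO senescent cells. Of all tested genes, 13% passed in either direction between genotypes in control cells and 23.7% in senescent cells. Both lists are drawn from the other clock genes counted above and both hold Cry1, so their counts are not independent.

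**Figure D4:**
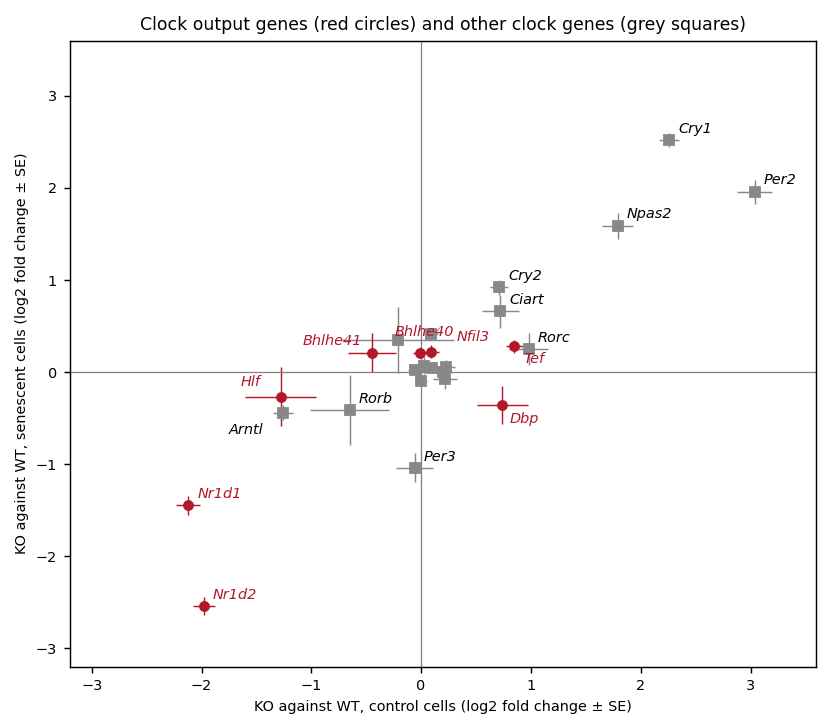
Log2 fold change of KO against WT in control cells (horizontal axis) and in senescent cells (vertical axis), with SE, for the 8 clock output genes (red circles) and 18 other clock genes (grey squares, named where a value exceeds 0.6 in size). Nr1d1 and Nr1d2 lie at the lower left, and Cry1, Per2 and Npas2 at the upper right.

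The genes most like each member were found by Pearson's r of log2 CPM over the 12 libraries, among 10945 other genes whose mean reached 5 CPM (10946 for Hlf, which has a lower mean). The 12 points fall into 4 groups of 3 and share their libraries, so r is given as a description. Nr1d1 was closest to Lcn2 (r = 0.992), Apoe (0.980) and Rbp4 (0.978), and Nr1d2 to Fah (0.959), Pcsk6 (0.956) and Nr1h3 (0.954). Tef was closest to Slit3 (0.977), Vcam1 (0.976) and Plag1 (0.974), and Dbp to Zfp12 (0.968), 4632415L05Rik (0.967) and Acss2 (0.955). Hlf was closest to Elovl4 (0.939), Adarb1 (0.939) and Abca4 (0.934), and Nfil3 to Ywhah (0.992), Plp2 (0.990) and Eef2 (0.989). The DEC genes had the loosest matches, Bhlhe40 with Ccdc12 (0.914), Tnfrsf23 (0.912) and Stk39 (0.908), and Bhlhe41 with Zfp385a (0.901), Eml5 (0.875) and Ttyh1 (0.871).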

How the data were processed

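The deposited values were raw counts, whole numbers per gene and library, in 1 table per genotype. The authors enriched poly(A) RNA, prepared libraries with the NEBNext Ultra II kit, sequenced paired ends, trimmed reads with Trimmomatic 0.36, mapped them to GRCm38 with STAR 2.5.2b and counted unique reads within exons with featureCounts. Strand setting and annotation release are not given in the sources used here, so genes with overlapping exons are uncertain.

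Identifiers were matched to GENCODE M21 symbols (48970 of 49315). In R 4.3.3, edgeR 4.0.16 kept 17416 genes (filterByExpr) and fitted TMM factors (0.926 to 1.07), robust dispersions and a quasi-likelihood model with 1 mean per group over all 12 libraries. Each adjusted p is from edgeR's quasi-likelihood F-test with Benjamini-Hochberg adjustment over all genes tested, and a gene passed under 0.05. The script was tested on simulated data. CPM used TMM-scaled totals, and log2 CPM a prior count of 2. At these depths 3 counts equal 0.0945 to 0.125 CPM, and every member was above that in every library. Such a floor covers counting error only. Libraries of a group differed beyond sampling noise (chi-square per degree of freedom 3.21 to 19.5), so none was a copy.

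Alternatives were DESeq2 1.42.0, DESeq2 size factors, upper-quartile factors, no filter, a fit of the compared libraries alone, a replicate block and leaving out each library. Members, lists and tests were chosen with earlier results of these data known. All 8 members were named, with the 3 genes most like each. From the lists, genes known as partners or targets of a member could be named.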

Additional observations from a re-analysis of the deposited data

Results flagged for a closer look

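In 4 of the 8 genes the senescence response differed between genotypes by the test of the difference itself, which 20.9% of all tested genes also passed. The KO less WT log2 fold change was 0.67 for Nr1d1 (adjusted p 0.00344), −0.57 for Nr1d2 (adjusted p 0.00703), −1.11 for Dbp (adjusted p 0.0142) and −0.57 for Tef (adjusted p 0.000668), all by edgeR's quasi-likelihood test over 17416 genes. On the log2 scale Nr1d1 rose more in KO cells, whereas Nr1d2, Dbp and Tef had the larger rise in WT cells. In CPM the mean of Nr1d1 rose from 18.1 to 33.2 in WT cells and from a lower base, 4.13 to 12.1, in KO cells. Without KO control replicate 2 the value of Dbp was −0.88 (adjusted p 0.0554). Groups of 3 libraries are too small for a test of outlying samples.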

How the results depend on the processing

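Of the comparisons of single genes under the alternatives, 667 kept their direction and their side of the threshold, 25 lost significance, 8 gained it and 12 changed sign. The sign changes were in values near 0. With upper-quartile factors the WT change of Bhlhe41 was 0.03 and the KO changes of Nr1d2 and Bhlhe40 were 0.06 and 0.05, a setting that moved the median of all genes by at most 0.086. With 1 library left out, Bhlhe41 ranged from −0.28 to 0.13 in WT cells, Nr1d2 from −0.09 to 0.06 in KO cells and Bhlhe40 from −0.05 to 0.03 between control cells. The number of the 8 genes that passed was 6 to 7 for WT senescence, 3 to 4 for KO senescence, 3 to 6 for the interaction, 3 to 5 between control cells and 3 to 5 between senescent cells when libraries were left out. The interaction count of 6 was without WT control replicate 3. In the fit of the compared libraries alone, 3 passed between control cells, where Dbp and Hlf were lost and the cause was not tested. No pairing by replicate number was seen, as deviations of same-numbered libraries correlated at −0.125 to 0.108. In 2 of 12 comparisons of a library with those of another group, the best match had the same number. With 3 libraries per group this cannot exclude a shared mouse or culture. With the replicate block 7, 4, 4, 5 and 5 genes passed, as without it. Hlf had 34 to 125 reads per library, which limits its precision.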

Other observations

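Rhythmic genes of many tissues that lie outside the clock (a list of 6) were also counted. With senescence 4 passed as higher and 1 as lower in WT cells, and 3 and 2 in KO cells, where 56.2% and 57.1% of all genes passed in either direction. Between genotypes 2 were higher and 0 lower in KO control cells (13% of all genes passed), and 2 higher and 1 lower in KO senescent cells (23.7%). Usp2, a deubiquitinase gene commonly found among clock outputs, was not shown to differ between genotypes in control cells (log2 fold change 0.12, SE 0.13, adjusted p 0.64) or senescent cells (0.02, SE 0.13, adjusted p 0.916). Tspan4, a tetraspanin gene, was 0.25 higher in KO control cells (SE 0.05, adjusted p 0.0026) and at −0.34 in KO against WT senescent cells (SE 0.05, adjusted p 6.12e-05), with an interaction of −0.59 (SE 0.07, adjusted p 2.32e-05). Wee1, a kinase gene whose product restrains entry into mitosis, had a senescence log2 fold change of −1.83 for WT (adjusted p 1.07e-12) and −1.99 for KO (adjusted p 1.98e-13), beside the fall of the cell cycle genes, and was not shown to differ between genotypes in control cells (0.25, adjusted p 0.0602). Tsc22d3 and Por were picked for mention after their values were seen. Tsc22d3, a glucocorticoid-induced gene, was higher in KO control cells (1.19, SE 0.17, adjusted p 0.000844) and in KO senescent cells (0.64, SE 0.15, adjusted p 0.0104). With senescence it rose in WT cells (1.33, SE 0.17, adjusted p 3.95e-05) and in KO cells (0.78, SE 0.15, adjusted p 0.0011). These rises were not shown to differ (interaction −0.55, SE 0.23, adjusted p 0.121). Por, which encodes an electron donor of cytochrome P450 enzymes, was higher in KO among senescent cells (0.39, SE 0.07, adjusted p 0.000358). It rose with senescence in WT cells (0.38, SE 0.07, adjusted p 0.000135) and in KO cells (0.83, SE 0.07, adjusted p 3.22e-09), with an interaction of 0.45 (SE 0.10, adjusted p 0.00308). The cause of these differences was not tested.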
